A study of Mus musculus with 11 samples.

Results

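Glomeruli isolated from non-diabetic db/m mice gave 4 RNA-seq libraries, titled S184, S185, DbmD2 and DbmD3, among the 11 libraries of the study. They were chosen by their group label alone, and no measured value entered the choice. Mice called db/m carry 1 copy of the db mutation in Lepr, the leptin receptor gene, and stay lean. Here they were male littermates of db/db mice, matched in age, and the treatment text places them on the BKS background, while the strain field reads C57BL/6J. From 10 weeks of age they received the vehicle, 5% DMSO, by gavage for 6 weeks. The remaining libraries came from db/db mice on puerarin (n = 3) or vehicle (n = 4) and enter no value given here. The labels do not say whether a library stands for 1 animal or for pooled animals. They name 2 sequencing sites without tying libraries to them, and they give no meaning to the 2 forms of title, an S number (S184 and S185) and a group tag with a number (DbmD2 and DbmD3).

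A glomerulus is the filter at the head of each nephron. Blood passes through capillaries lined by fenestrated endothelium, then through the glomerular basement membrane and the slit diaphragms that join the foot processes of podocytes. Mesangial cells hold the capillary loops together, parietal epithelial cells line the capsule around them, renin-producing and smooth muscle cells sit in the arterioles at the pole of the tuft, and tubules surround it. Podocytes hardly divide after birth and keep an elaborate actin skeleton, and much of their known biology concerns that skeleton and the slit diaphragm.

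The deposited table listed 13734 gene symbols, and each symbol is given here by its transcript with the highest count. The 4 libraries held 39406349 to 44244460 counts over all transcripts, and 24514222 to 27671775 over the highest transcripts alone. A level is given as counts per 1000000 of the smaller total (CPM), or as CPM per kilobase of transcript where genes are set beside each other. A rank or percentile is the place of a gene's mean CPM per kb among the 13734 symbols. The 4 values in a row stand for S184, S185, DbmD2 and DbmD3 in that order, and a mean ± SD is over these 4 libraries (n = 4). Transcripts of 1 symbol often carry nearly the same count, and summing them, tried as an alternative, raises genes listed with many transcripts over those listed with 1. Ratios between genes are given with their summed value where it differs by over 1.5-fold. Every library is set to the same total, so a value is a share of the counted RNA. In such bulk samples fewer cells of a type and less RNA per cell cannot be told apart.

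Abundance spanned 5 decades. The median symbol had 10.2 CPM per kb, the highest 10% began at 61.4 and the highest 1% at 420 CPM per kb. Only 24 symbols reached 1000 CPM per kb and together took 5.89% of the counts, whereas the 6210 symbols between 10 and 100 CPM per kb took 53.0%. A further 719 symbols between 100 and 1000 CPM per kb took 30.1%. The 10 symbols highest by CPM held 4.62% of the counts, the 100 highest 16.2% and the 1000 highest 46.7%, and 1179 symbols made up 50% of all counts. The distribution thus had no single dominant transcript.

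Genes of podocytes, of tubules and of every cell shared the head of the ranking. Podxl, which encodes podocalyxin, the sialomucin that coats podocyte foot processes, had the highest mean CPM of all, at 9703, 11191, 11426 and 9223 CPM. Per kb of transcript it stood at 1949 ± 204 and rank 9. S185 and DbmD2 lay above S184 and DbmD3, and the range was under 1.3-fold. Podxl lies on chromosome 6 (31519492 to 31563937, minus strand) in the coordinates of the deposited table, build mm10.

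Ranks 1 and 2 belonged to Gpx3, a secreted glutathione peroxidase made by the proximal tubule, and Kap, an androgen-regulated proximal tubule gene of the mouse. Gpx3 had 7021, 2071, 1909 and 3259 CPM per kb, and Kap had 7789, 3026, 863 and 1358 CPM per kb. Both were highest in S184, and the SD of Kap (3159) nearly equalled its mean (3259). Leaving S184 out lowered the mean of Kap to 1749 CPM per kb. Igfbp7, a secreted protein that binds insulin-like growth factors, stood at rank 3 with 3231 ± 167 CPM per kb, with values of 3112, 3142, 3194 and 3476. Tmsb4x (thymosin beta-4, which binds monomeric actin) stood at 2902 ± 372 and Itm2b, an integral membrane protein, at 2447 ± 167 CPM per kb. These ubiquitous or vascular genes were even across the libraries, unlike the tubule genes around them. Tmsb4x is also counted among the podocyte genes below.

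Further down the first 25 came Eef1a1, the elongation factor that delivers aminoacyl-tRNA (2160.2 ± 268 CPM per kb), Ftl1, the ferritin light chain (1799.5 ± 272), and Plat, tissue plasminogen activator, which glomerular endothelium makes (1394 ± 223). Klk1, a kallikrein of the distal nephron, had 1753, 468, 2674 and 3300.1 CPM per kb, and S100g, the calcium-binding calbindin-D9k of distal tubules, had 1650.3, 274, 1748 and 1819. S185 was far below the other libraries in both. Among the 25 highest symbols, 23 of the 24 neighbouring pairs differed by less than the larger of their SDs. The exception was Tmsb4x over Itm2b. Within libraries, 2 pairs kept the same order in all 4, Tmsb4x over Itm2b and Gm1821 over Eef1a1. The order of the other pairs is not fixed by these libraries. Of these 25, 19 were among the 25 highest in every one of the 4 libraries. Gm1821 (a ubiquitin pseudogene, rank 6), Rpl31-ps12 (rank 21) and the class I genes H2-Q6 and H2-Q8 (ranks 12 and 15), whose counts were identical, share reads with close copies and are uncertain.

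**Figure D1:**
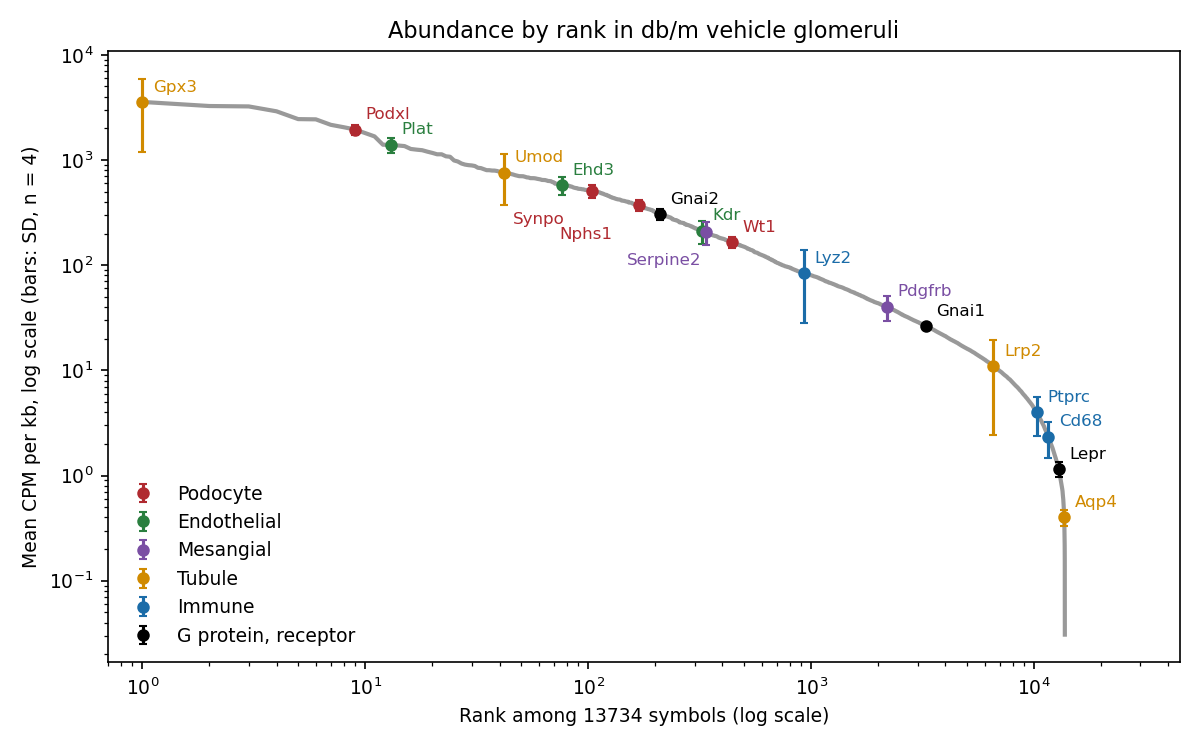
Mean CPM per kb against rank for all 13734 symbols in the 4 db/m vehicle libraries, both axes logarithmic, with named genes coloured by cell type and bars for the SD over the 4 libraries. Podxl and Synpo stand at ranks 9 and 104, Gpx3 at rank 1 has the widest bar among the genes shown at the head, and Lepr and Aqp4 lie at ranks 12874 and 13655.

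Podocyte genes filled much of the upper ranking. Of 55 podocyte genes listed by role, 53 were measured, and 33 of them were in the highest 10% of all symbols and 8 in the highest 1%. Their median percentile was 94.1, against 50 for all symbols. Together they took 4.43%, 5.05%, 5.34% and 4.33% of the counts. None of the 53 differed over 2-fold between its highest and lowest library, where 1606 of 13734 symbols, 11.7%, did. The S-number and group-tag libraries did not overlap for 12 of the 53 podocyte genes (9 with DbmD2 and DbmD3 above), against 41.9% of all symbols (25.5% with DbmD2 and DbmD3 above).

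Within the slit diaphragm and foot process list (19 of 20 measured, median percentile 93.7) the levels spread over almost 3 decades. Synpo, the gene of the actin-associated foot process protein synaptopodin, had 409, 506, 593 and 515 CPM per kb. Actn4, the actin cross-linker alpha-actinin-4, had 373, 427, 403 and 431 CPM per kb, and Nphs1, which encodes nephrin, the main adhesion molecule of the slit diaphragm, had 344, 350.1, 438 and 348. Actn4 and Nphs1 differed by less than the larger of their SDs, whereas Podxl lay above Synpo, and Synpo above Actn4, by more. DbmD2 stood alone above the others for Nphs1.

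The rest of that list ran downward from Rhpn1 (264 ± 74.9 CPM per kb; 202, 203, 299 and 353), and Ptpro, the foot process tyrosine phosphatase GLEPP1 (148 ± 28.9). Rhpn1 was the most variable of the list, with DbmD2 and DbmD3 above S184 and S185. Cd2ap, the adaptor that ties the slit diaphragm to actin, stood at 59.3 ± 12.4 CPM per kb, near Kirrel (54.6 ± 11.3), a nephrin relative, and Nck2 (47.2 ± 3.58), an adaptor for phosphorylated nephrin. These 3 differed by no more than the larger SD from one to the next. Trpc6, the cation channel whose gain-of-function variants cause familial glomerulosclerosis in humans, was far lower, at 1.92, 2.87, 2.39 and 2 CPM per kb and rank 11614. Kirrel3 was not listed.

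All 9 podocyte transcription factors were above the median of the ranking (median percentile 90.7). The 581 symbols that the table annotates with transcription factor activity had a median percentile of 40.9. Tcf21, a basic helix-loop-helix factor of podocyte differentiation, had 203, 223, 225 and 221 CPM per kb. Wt1, the zinc finger factor that maintains the podocyte program, had 152.1, 167, 191 and 149 CPM per kb. Wt1 lay below Tcf21 by more than the larger SD. The forkhead gene Foxc2 (94.2 ± 13.5 CPM per kb) and the LIM homeobox gene Lmx1b (44 ± 4.92) had both S-number libraries above both group-tag libraries, by gaps of 0.16 and 0.19 on the log2 scale. Zhx2 was lowest, at 10.7 ± 0.566 CPM per kb.

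Other podocyte-enriched genes included secreted and signalling molecules at high and even levels. Sema3g, a secreted semaphorin, had 898, 908, 967 and 844 CPM per kb (rank 28), and its SD on the log2 CPM scale was only 0.08. Cdkn1c, the cell cycle inhibitor p57, had 522, 591, 768 and 574 CPM per kb. Clic3, an intracellular chloride channel family member, stood at 504 ± 21.6, Enpep, the aminopeptidase A that degrades angiotensin II, at 438 ± 69.1, and Pth1r, the parathyroid hormone receptor, at 379.7 ± 14.5 CPM per kb. Pth1r was the highest of the 121 symbols annotated as G protein-coupled receptors. Vegfa, the growth factor with which podocytes maintain the endothelium, had 215, 249, 269.6 and 228 CPM per kb (rank 280). Its mean was 240.4 CPM per kb by the highest of its 10 transcripts and 1078 with all summed. The human membranous nephropathy antigens differed in level: Thsd7a stood at 78.1 ± 19.7 CPM per kb and Pla2r1 at 10.2 ± 1.96, with Pla2r1 at rank 6867, the middle of the ranking.

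Glomerular endothelial genes followed closely (30 of 31 measured, median percentile 92.3, 19 in the highest 10%). Ehd3, a membrane-trafficking ATPase that marks glomerular endothelium in the mouse, led by the highest transcript with 483, 706, 491 and 626 CPM per kb. Emcn (endomucin, a sialomucin of capillaries) had 364, 477, 333 and 400.4 CPM per kb, and Kdr, the main VEGF receptor, had 231, 265, 141 and 209.6. Of the 30 genes, 20 were highest in S185 and 19 lowest in DbmD2, against 28.6% and 19.7% of all symbols. Pecam1 (184.8 ± 36.2 CPM per kb), an adhesion molecule of endothelial junctions, Tie1 (103 ± 21.8) and Tek (74.6 ± 17.8), receptors of the angiopoietin system, and Flt1 (50.4 ± 11.5), the VEGF receptor that also acts as a decoy, lay lower. Pecam1 differed from Kdr by less than the larger SD. With transcripts summed the order changed: Emcn stood at 491, Pecam1 at 443, Ehd3 at 360, Tek at 138, Kdr at 132 and Tie1 at 64.4 CPM per kb. Kdr exceeded Flt1 4.19 ± 0.55-fold per kb. Nos3, the endothelial nitric oxide synthase, had 15.8 ± 2.32 CPM per kb, and Vwf, which encodes von Willebrand factor and is known to be weak in glomerular capillaries, had 1.12, 0.994, 1.27 and 0.964 CPM per kb, at rank 12955. Plvap, the diaphragm protein that fenestrated glomerular capillaries largely lack, was nevertheless at 64.5, 66.9, 41.7 and 89.2 CPM per kb. It was the single gene of this list that differed over 2-fold, where 11.7% of all symbols did. Esm1, an endothelial proteoglycan that is not on the list and was picked after its values were seen, had 33.7, 34.3, 8.34 and 8.85 CPM per kb, with S184 and S185 far above DbmD2 and DbmD3.

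Mesangial genes (17 of 18 measured) had a median percentile of 89.7, and all 17 were above the median symbol. Sfrp2, a secreted Wnt modulator, had 208, 242, 149.9 and 265 CPM per kb, and Serpine2, a protease inhibitor, had 213, 263, 142 and 208. These 2 differed by less than their SDs. DbmD2 was lowest in 15 of the 17 genes, against 19.7% of all symbols. Itga8, the integrin subunit by which mesangial cells bind nephronectin, had 62.2, 83.1, 39.9 and 65.4 CPM per kb. Pdgfrb, the receptor for podocyte- and endothelium-derived PDGF, had 43.6, 41.6, 25.4 and 49.8, and Gata3, a zinc finger factor, had 25.2, 27.2, 22 and 42.6. The subunits of soluble guanylate cyclase, the nitric oxide receptor, kept a steady proportion across libraries, with Gucy1a3 at 1.20 ± 0.07 times Gucy1b3 per kb, or 0.63 ± 0.04 times with transcripts summed. Igfbp5, an insulin-like growth factor binding protein among the 10 highest symbols by CPM, had 3607, 4179, 2449 and 3610.3 CPM, lowest in DbmD2 like the mesangial list.

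Genes of arteriolar smooth muscle and renin cells were as high in the ranking (11 measured, median percentile 90.8) but far less even. Of the 11, 5 differed over 2-fold, against 11.7% of all symbols. Acta2 (smooth muscle alpha-actin) had 37.1, 37.4, 133 and 124 CPM per kb, Myh11 (smooth muscle myosin) had 12.3, 11, 59.6 and 47.2, and Tagln (the actin-binding protein transgelin) had 45.7, 46.6, 109.5 and 115. In each, DbmD2 and DbmD3 stood well above S184 and S185, and the nearest libraries of the 2 title forms were 1.72, 1.94 and 1.23 apart on the log2 scale. Cnn1, the contractile regulator calponin, showed the same split at a low level, with 0.898, 0.473, 8.03 and 6.57 CPM per kb. Gaps of over 2-fold with both group-tag libraries above were found for 4 of these 11 genes and for 0.444% of all symbols. Ren1, which encodes renin, ran the other way, with 364, 266, 151 and 178 CPM per kb, both S-number libraries above. Renin and contractile genes therefore did not rank the libraries alike. Desmin (Des, 44.7 ± 9.81 CPM per kb) and the pericyte receptor Notch3 (18.8 ± 3.73) differed less.

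**Figure D2:**
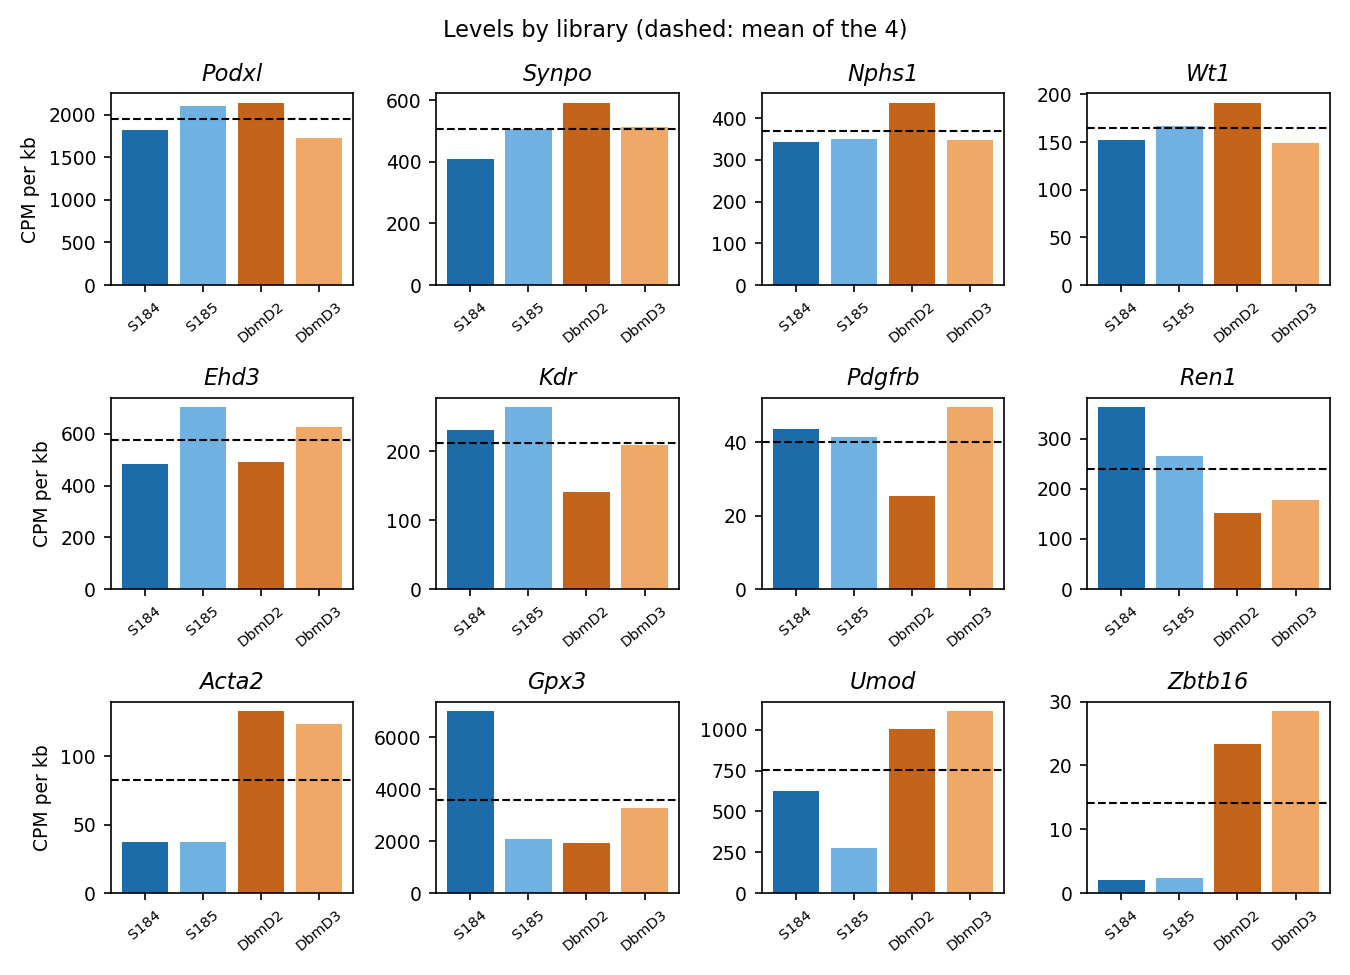
Levels of 12 genes in each of the 4 libraries as bars in CPM per kb from 0, with the mean dashed. Podxl, Synpo, Nphs1 and Wt1 vary little, Kdr and Pdgfrb dip in DbmD2, Gpx3 peaks in S184 at 7021, Umod is lowest in S185 at 276, and Acta2 and Zbtb16 are high in DbmD2 and DbmD3 alone.

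The basement membrane of the filter is built mainly of type IV collagen, laminin, nidogen and agrin, and the mature collagen trimer of podocytes holds the alpha3, alpha4 and alpha5 chains. All 17 listed genes were measured (median percentile 82.5). Col4a3 had 109, 124, 187 and 117 CPM per kb, Col4a4 had 47, 49, 72.5 and 48.2, and Col4a5 had 21.2, 24.8, 33.1 and 24.4. DbmD2 was highest in all 3. The chains of this trimer kept a steady proportion across libraries. Col4a3 exceeded Col4a4 2.47 ± 0.12-fold. Col4a4 was 2.09 ± 0.13 times Col4a5 by the highest transcript, but 1.06 ± 0.07 times with the 2 transcripts of Col4a5 summed. The alpha1 and alpha2 chains of the other collagen IV network, which mesangial and endothelial cells make, stood at 1.04 ± 0.06 (Col4a1 over Col4a2), or at 2.06 ± 0.12 with the 2 transcripts of Col4a1 summed. The balance between the networks was not steady, since Col4a3 over Col4a1 was 2.67, 2.80, 4.77 and 1.59, with a mean of 2.96 that became 1.5 with transcripts summed.

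Laminin-521, the laminin of the mature membrane, is made of alpha5, beta2 and gamma1 chains. Lamb2 had 111, 117, 137 and 144.2 CPM per kb, Lama5 had 34.9, 39.2, 56.4 and 54.8, and Lamc1 had 26.3, 31.8, 28.1 and 32. Lamb2 exceeded Lama5 2.81 ± 0.34-fold and Lamc1 4.33 ± 0.50-fold, and it exceeded Lamb1, the beta chain of the immature membrane, 4.31 ± 0.61-fold. Lama1, another chain of the immature membrane, was near the floor of the ranking (1.04 ± 0.236 CPM per kb, rank 13022). Npnt, the matrix ligand nephronectin, was the highest gene of the list at 244, 279, 309.8 and 240.5 CPM per kb (mean 268, or 825 with transcripts summed). Podocytes bind laminin through integrin alpha3beta1, and its subunit genes Itgb1 (355, 476, 400.0 and 346 CPM per kb) and Itga3 (139, 149, 169 and 173) were in the highest 10%. The highest of the 21 integrin and adhesion genes was Itgb5 (416 ± 25.8 CPM per kb), a partner of the alpha-v chain, followed by Itgb1 within its SD.

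Tubule genes were abundant in all 4 libraries, although the tissue label is glomerular. Of 26 proximal tubule genes, 14 were in the highest 10% of symbols (median percentile 91.7), and every one of the 26 was highest in S184 and differed over 2-fold between libraries. Over all symbols, S184 was the highest library for 20.1%, and 11.7% differed over 2-fold. The 26 genes took 2.74%, 0.968%, 0.641% and 1.03% of the counts. Slc34a1, the phosphate transporter, had 551, 221, 169 and 253 CPM per kb, and Slc5a2, the glucose transporter SGLT2, had 113, 39.9, 27.7 and 54.3. Without S184 the median percentile of the list was 84.8. DbmD2 was the lowest library for 24 of the 26, against 19.7% of all symbols. The endocytic receptors Lrp2 (megalin; 23.5, 8.49, 4.77 and 7.07 CPM per kb) and Cubn (cubilin) were also highest in S184 and lowest in DbmD2. Their ratio varied little, at 2.67 ± 0.14. Lrp2 averaged 6.78 CPM per kb without S184 and 11 with it.

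The loop of Henle, distal tubule and collecting duct had another order of libraries. All 14 loop and distal tubule genes were lowest in S185 and 12 of them had both group-tag libraries above both S-number libraries. Over all symbols, S185 was the lowest library for 28.7%, and 25.5% had both group-tag libraries above. Umod, which encodes uromodulin of the thick ascending limb, had 626, 276, 1002 and 1117 CPM per kb (rank 42), and Slc12a3, the thiazide-sensitive cotransporter of the distal convoluted tubule, had 227, 75.1, 386 and 325. Egf, made in the same segments, had 268, 131, 491 and 455 CPM per kb. Calb1, the calcium buffer calbindin-D28k, had 115, 31.7, 197 and 183. The list took 0.634%, 0.285%, 1.01% and 0.988% of the counts. Collecting duct genes (14 measured, median percentile 58.6) were lower but ordered alike, with Aqp2, the vasopressin-regulated water channel, at 132, 59.8, 153.1 and 186 CPM per kb. Aqp4, another water channel of that segment, was almost at the end of the ranking at 0.438, 0.35, 0.475 and 0.338 CPM per kb.

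The share of tubule transcripts thus differed between the libraries in kind as well as in size: S184 had the most from the proximal tubule, DbmD2 the least, and S185 had the least from distal segments. Podocyte lists moved little beside this. A list level was taken by centring log2(CPM + 0.5) of each member on its own mean over the 4 libraries and averaging over the members. It was 1.19, -0.12, -0.85 and -0.21 for the proximal tubule list and 0.08, -1.21, 0.58 and 0.55 for the loop and distal list. For slit diaphragm and foot process genes it was -0.16, 0.09, 0.18 and -0.11. What part these differences had in other results was not tested.

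Blood and immune cells left little RNA. Myeloid genes had a median percentile of 33.9, with 1 of 19 in the highest 10%. That gene was Lyz2 (lysozyme), at 116, 145, 30.7 and 43.5 CPM per kb. The pan-leukocyte phosphatase Ptprc had 3.9, 6.22, 2.8 and 2.98 CPM per kb, and the macrophage genes C1qa (a complement subunit) and Cd68 (a lysosomal glycoprotein) averaged 2.55 ± 0.777 and 2.34 ± 0.879. Both S-number libraries lay above both group-tag libraries for 15 of the 19 genes and for 16.4% of all symbols. Over 2-fold gaps of that direction were found for 2 of the 19 and for 0.422% of all symbols. Of 12 lymphocyte genes, 4 were listed, and the highest, the B cell receptor component Cd79a, had 2.8 ± 0.958 CPM per kb. None of the T cell receptor complex genes Cd3e, Cd3d and Cd3g was listed.

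Haemoglobin genes, which mark red cells, were low and uneven: Hbb-bs had 20.5, 32.9, 7.41 and 16.7 CPM per kb and Hba-a1 had 16, 23.4, 4.74 and 19.2. All 6 listed globin genes were highest in S185 and lowest in DbmD2, against 28.6% and 19.7% of all symbols, although their near-identical copies share reads. The 6 parietal epithelial genes were below the middle of the ranking except 1 (median percentile 33.7). Cp, ceruloplasmin, was that exception at 13 ± 3.21 CPM per kb, and Pax2, a homeodomain factor of capsule and collecting duct, had 2.28, 0.943, 2.91 and 3.41. Fibroblast collagen was nearly absent, with Col1a1 at 0.87, 0.823, 0.908 and 0.964 CPM per kb (rank 13179), while the actin-severing protein Gsn on the same list reached 233 ± 17.9. Xist, which silences 1 X chromosome in females, was next to last in the ranking at 0.0363 ± 0.00988 CPM per kb, and the Y-linked genes Ddx3y (22.7 ± 3.87) and Eif2s3y (29.1 ± 3.21) were present in every library, which matches the label of male mice.

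**Figure D3:**
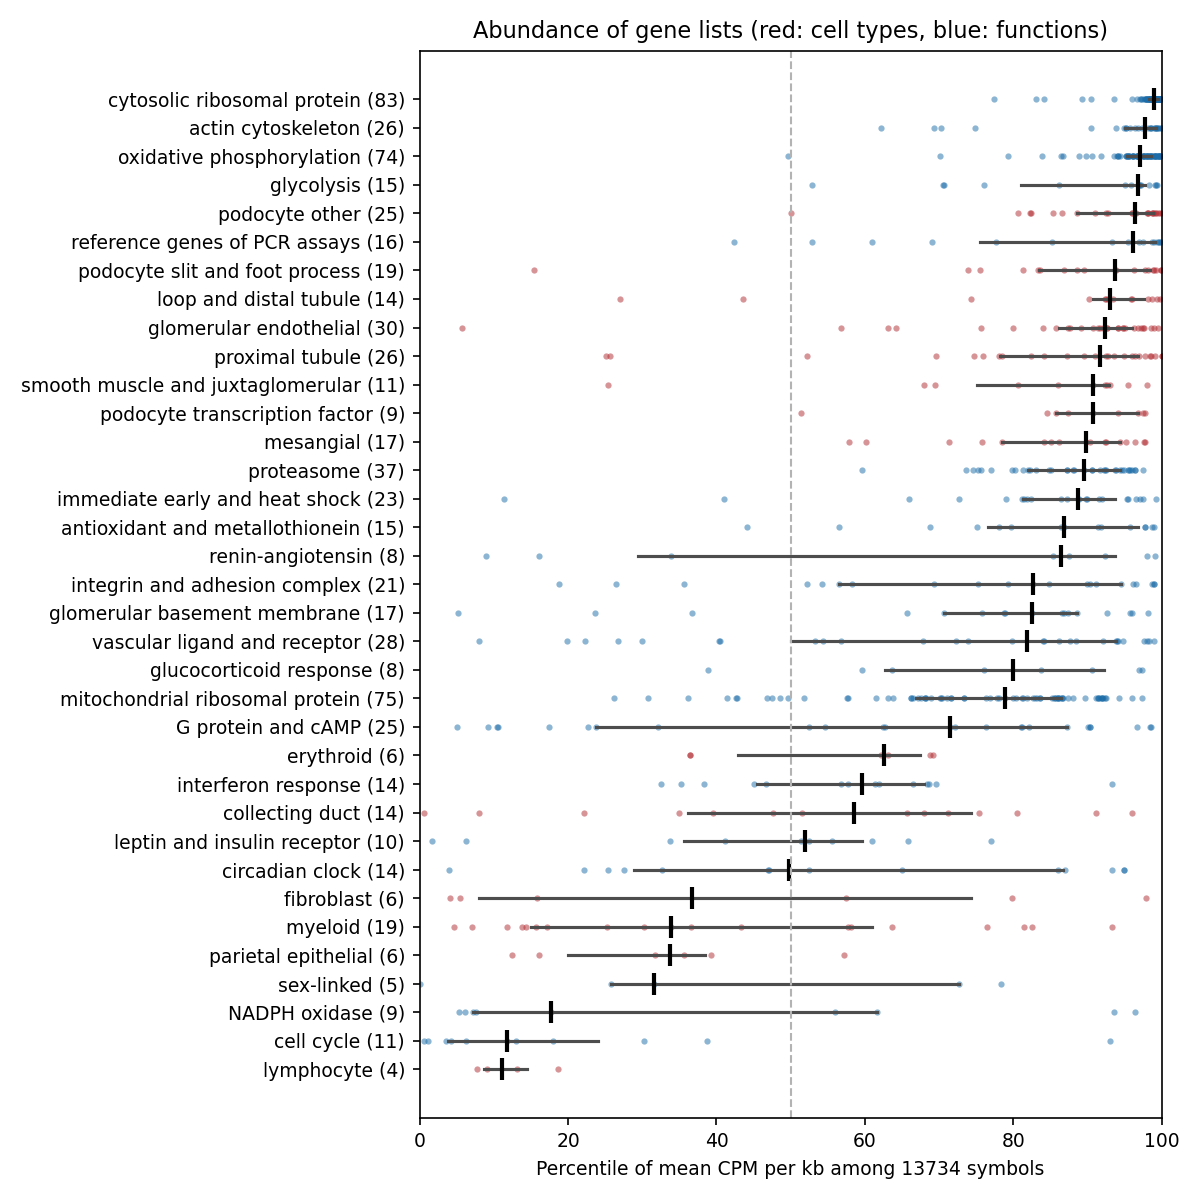
Percentile of mean CPM per kb of every member of 35 gene lists among the 13734 symbols, with the median as a black tick and the quartiles as a bar (cell types in red, functions in blue, members measured in brackets). Cytosolic ribosomal, actin and podocyte lists lie at the right, with medians above 90, while lymphocyte, cell cycle and NADPH oxidase lists have medians under 20.

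By function, translation led. The 83 cytosolic ribosomal protein genes had a median percentile of 98.96 and took 3.05%, 2.82%, 2.61% and 2.68% of the counts, and 79 of them were in the highest 10%. Rpl41 had 1418, 1169, 1110.1 and 1316 CPM per kb and Rps14 had 1389, 1236, 1059 and 1114. For 54 of the 83, both S-number libraries lay above both group-tag libraries, and for none was it the reverse. All symbols had 16.4% with the S-number libraries above and 25.5% with the reverse. The shifts were small: the list levels were 0.15, 0.02, -0.09 and -0.08. Ribosomal protein messages are known to begin with a terminal oligopyrimidine tract, through which the mTOR pathway controls their translation. A tract of this kind, here a C at the annotated start followed by at least 4 bases that are each C or T on the sense strand, opened 12 of the 58 ribosomal protein genes whose RefSeq promoter matched the table (20.7%). It opened 2.29% of all 9995 matched symbols.

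The 4 highest ribosomal protein genes with such a tract show its form. They are given 5′ to 3′ from RefSeq (build GRCm38.p6), 10 bases before the start and 20 from it, with the tract in capitals.
Rps18: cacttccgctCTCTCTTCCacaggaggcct
Rpl28: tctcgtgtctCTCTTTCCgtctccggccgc
Rpl35: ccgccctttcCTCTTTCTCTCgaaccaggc
Rps6: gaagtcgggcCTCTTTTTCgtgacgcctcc
These windows lie at chr17:33955646-33955675 (minus strand), chr7:4792955-4792984 (plus), chr2:39005112-39005141 (minus) and chr4:86857348-86857377 (minus). Rps18 had 695, 637, 577 and 619 CPM per kb, Rpl28 had 657, 612, 583 and 668, Rpl35 had 547, 502, 486 and 479, and Rps6 had 486, 484, 428 and 426. All 4 differed by less than 1.3-fold between libraries. Among the 100 symbols of highest CPM per kb, 64 promoters matched and 2 opened with a tract.

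Actin genes came next: all 26 were above the median symbol and 22 in the highest 10% (median percentile 97.7). Myl6, the non-muscle myosin light chain, had 1186, 1126, 1208 and 1148 CPM per kb (mean 1167, or 3442 with transcripts summed). The cytoplasmic actins Actb and Actg1 had a ratio of 1.09 ± 0.07 by the highest transcript and 0.57 ± 0.04 with transcripts summed. Tmsb4x exceeded its paralog Tmsb10 6.29 ± 1.03-fold, or 2.25 ± 0.38-fold with transcripts summed. The 347 symbols annotated to focal adhesions had a median percentile of 84.6 and the 7 annotated to the slit diaphragm one of 92.8, against 52.6 for the 766 of the extracellular space and 51.1 for the 84 of the basement membrane.

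Nuclear-encoded oxidative phosphorylation genes (74 measured, median percentile 97.0) took 1.88%, 1.12%, 1.61% and 1.73% of the counts. Cox6a1, a subunit of cytochrome c oxidase, had 1927, 1099.7, 1643 and 2035 CPM per kb, and Atp5b, the catalytic beta subunit of ATP synthase, had 1052, 654, 978 and 1020.0. S185 was lowest in 73 of the 74 and in 28.7% of all symbols, as it was in the loop and distal tubule list. Glycolysis genes were also high (15 of 16 measured, median percentile 96.7) and 13 of the 15 were lowest in S185. Ldhb, the lactate dehydrogenase subunit of oxidative tissues, had 498, 186, 501 and 564 CPM per kb, and Gapdh had 685, 372, 487 and 617.

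Proteasome genes were steadier. The 37 proteasome subunits had a median percentile of 89.5, and their list levels (0.06, 0.03, -0.06 and -0.03) had the narrowest range of the 35 lists of cell types and functions. Psma7, an alpha subunit of the core, had 141, 135, 138 and 131 CPM per kb. At the other end, proliferation was nearly silent: the 11 measured cell cycle genes had a median percentile of 11.75, with the proliferation antigen Mki67 at 0.524, 0.563, 0.474 and 0.414 CPM per kb. Pcna, the clamp of DNA replication and repair, was the exception at 84.3, 96.2, 77 and 69.4. Receptors and channels lay low as classes, with median percentiles of 23.4 for 121 G protein-coupled receptors and 13.4 for 92 ion channels, against 47.7 for 444 protein kinases. Interferon response genes were in the middle (14 of 16 measured, median percentile 59.6) and antioxidant genes higher (15 measured, 86.8), led by Sod1, the cytosolic superoxide dismutase (406 ± 62.8 CPM per kb).

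Signalling between podocytes and vessels was represented on both sides. Besides Vegfa and Kdr, the coreceptor Nrp1 had 265, 373, 221 and 254 CPM per kb, and the adrenomedullin receptor parts Ramp2 and Calcrl averaged 92.9 ± 13.7 and 39.9 ± 11.7 CPM per kb. Their ligand Adm (31.2 ± 3.6 CPM per kb) differed from Calcrl by less than the larger SD. Angpt1, the agonist ligand of Tek, was low at 3.01 ± 0.776 CPM per kb, under its antagonist Angpt2 (24 ± 4.38). The 28 measured vascular ligands and receptors had a median percentile of 81.9, and 15 were highest in S185, against 28.6% of all symbols.

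The design text of the study names Gnai1, an inhibitory G protein alpha subunit that lowers cAMP, as a binding partner of puerarin. Gnai1 had 25, 28.7, 24.9 and 27 CPM per kb (26.4 ± 1.81, rank 3262, percentile 76.3), a range of 1.15-fold. It lies on chromosome 5 (18265134 to 18360413, minus strand, mm10). Its paralogs were higher: Gnai2 had 292, 345, 262 and 323 CPM per kb and Gnai3 had 46.9, 57.4, 48.7 and 43.7. Gnai2 exceeded Gnai1 11.6 ± 0.70-fold and Gnai3 6.25 ± 0.84-fold, so Gnai1 was the least abundant of the 3. The stimulatory subunit Gnas (334 ± 29.8 CPM per kb) stood at 1.11 ± 0.16 times Gnai2 by its highest transcript. Gnas is listed with 10 transcripts and Gnai2 with 1, and with transcripts summed the ratio was 9.45 ± 1.44. Adcy6 (61.5 ± 11.5) was the highest of the 8 listed adenylyl cyclases, ahead of Adcy1 (33.3 ± 7.46), and Prkar1a (162 ± 8.56) the highest protein kinase A subunit. None of the 25 measured genes of this list differed over 2-fold, where 11.7% of all symbols did.

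Renin-angiotensin genes fell into high and low members. Enpep and Ren1 were in the highest 10% together with Agtr1a, the angiotensin II receptor of mesangial cells (83.4, 88.8, 50.8 and 84.9 CPM per kb), in which DbmD2 was low. Ace, the converting enzyme, had 6.4, 7.4, 4.35 and 4.82 CPM per kb, and the precursor Agt averaged 1.45 ± 0.704. Lepr, whose db allele these mice carry in heterozygous form, had 1.11, 1.42, 0.972 and 1.11 CPM per kb, at rank 12874 (percentile 6.27). The insulin receptor Insr stood at 14.8 ± 0.755 and differed by no more than 1.13-fold. Among NADPH oxidase genes (9 of 11 measured), Nox4, which renal tubules express strongly, had 34.6, 10.9, 7.09 and 7.82 CPM per kb. Like most proximal tubule genes, it was highest in S184 and lowest in DbmD2. Its mean was 15.1 CPM per kb with S184 and 8.62 without it.

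Spread between the 4 libraries was small for most genes, yet above what counting error gives. Of 10530 symbols with at least 10 CPM, the median SD on the log2(CPM + 0.5) scale was 0.18, where the reads counted would give 0.043 alone. Between the highest and lowest library 905 of them (8.59%) differed over 2-fold. The biological coefficient of variation, the replicate spread that edgeR estimates beyond counting error, was 21.9% over the 4 libraries, 21.4% within S184 and S185 and 13.8% within DbmD2 and DbmD3. DbmD2 and DbmD3 differed over 2-fold in 29 of the 10530 symbols. S184 and S185 did so in 488, more than any pair across the title forms (310 to 454). In a principal component analysis of the symbols above 10 CPM, the first component (52.5% of the variance) separated S184 and S185 from DbmD2 and DbmD3. The second (34.4%) set S184 at one end and S185 at the other.

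**Figure D4:**
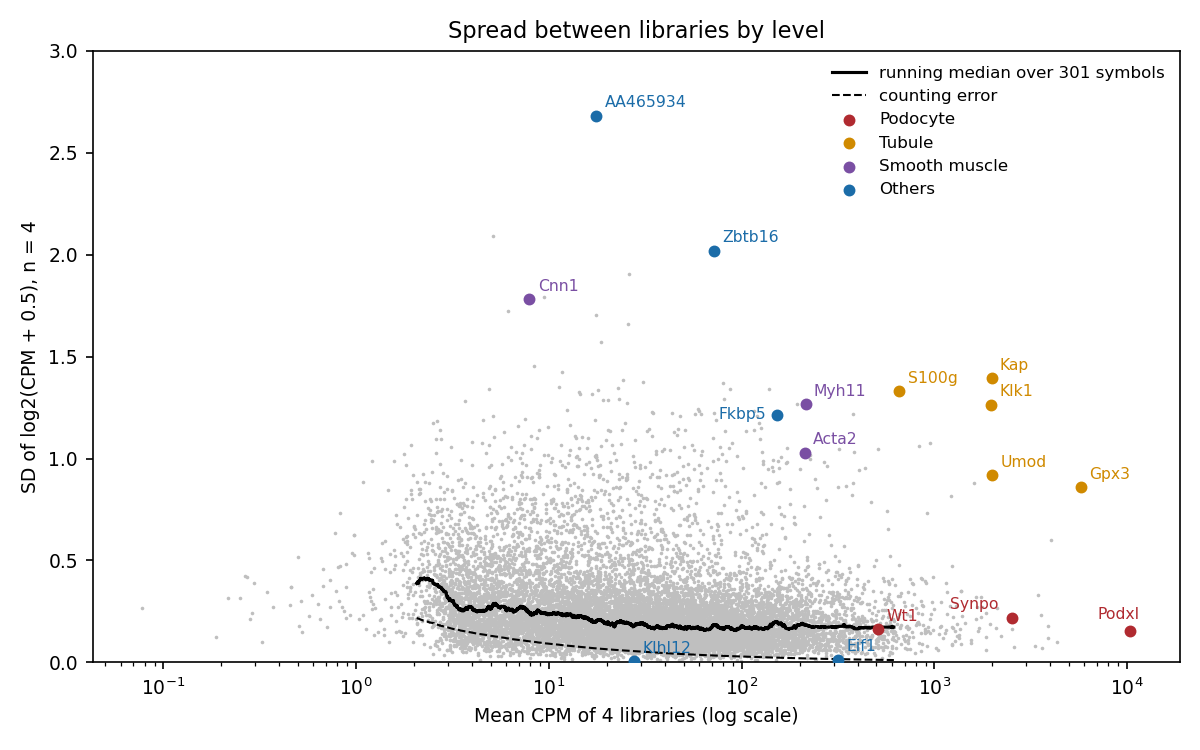
SD of log2(CPM + 0.5) over the 4 libraries against mean CPM (log axis), each grey dot 1 symbol, with the running median as a solid line and the counting error as a dashed line. Podxl and Synpo lie low at SDs of 0.15 and 0.22, while the tubule gene Kap (1.39) and the smooth muscle gene Myh11 (1.27) lie far above the line.

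Most large differences followed a few patterns. Each of the 905 symbols was placed once, by the largest gap between its log2 values in order. For 350 (38.7%) that gap set S185 below the other libraries, among them 11 loop and distal and 10 collecting duct genes. For another 276 (30.5%) it set S184 above the others, with 20 of the 26 proximal tubule genes. It set DbmD2 and DbmD3 above S184 and S185 for 95 (10.5%) and below them for 38. DbmD2 was set below the others for 39 and DbmD3 for 25. Libraries on the same side of the gap could still differ. Kap was placed as high in S184, yet both S-number libraries lay above both group-tag libraries (4736, 1840, 524 and 825 CPM).

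The gene with the largest spread, AA465934, an expressed sequence without a named product in the table, had 0.793, 1.01, 34.8 and 34 CPM. Zbtb16, a zinc finger repressor induced by glucocorticoids, was next with 10.5, 12.2, 119 and 146 CPM. Both were high in DbmD2 and DbmD3 and nearly absent or low in S184 and S185. Fkbp5, a cochaperone of the glucocorticoid receptor that the hormone also induces, had 52.2, 63.6, 262 and 232 CPM. Of the 8 measured glucocorticoid-responsive genes, 5 had both group-tag libraries above, against 25.5% of all symbols. Sgk1, a kinase of sodium transport, did not, at 173, 231, 171 and 199 CPM per kb. Tsc22d3, which encodes the hormone-induced protein GILZ, did not either, at 145, 192, 201 and 151 CPM per kb. The list levels were -0.50, -0.55, 0.48 and 0.58.

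Other extremes were high in both S184 and S185. Cyp2a5, a cytochrome P450, had 62.8, 32.9, 5.02 and 3.89 CPM and Azgp1, a zinc-binding secreted glycoprotein, had 40.9, 21.9, 3.06 and 4.38 CPM. Both were highest in S184. The nearest libraries of the 2 title forms were 2.60 and 2.20 apart on the log2 scale. Cyp2a4 shares reads with Cyp2a5, and both are uncertain. Of the 20 most variable symbols, 15 were highest in S184, against 20.1% of all symbols. High in DbmD2 and DbmD3 instead were Myh6, a cardiac myosin heavy chain, at 4.6, 4.41, 21.5 and 26.6 CPM, and Kcne1, a potassium channel subunit, at 9.68, 3.87, 29.8 and 28.4.

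**Figure D5:**
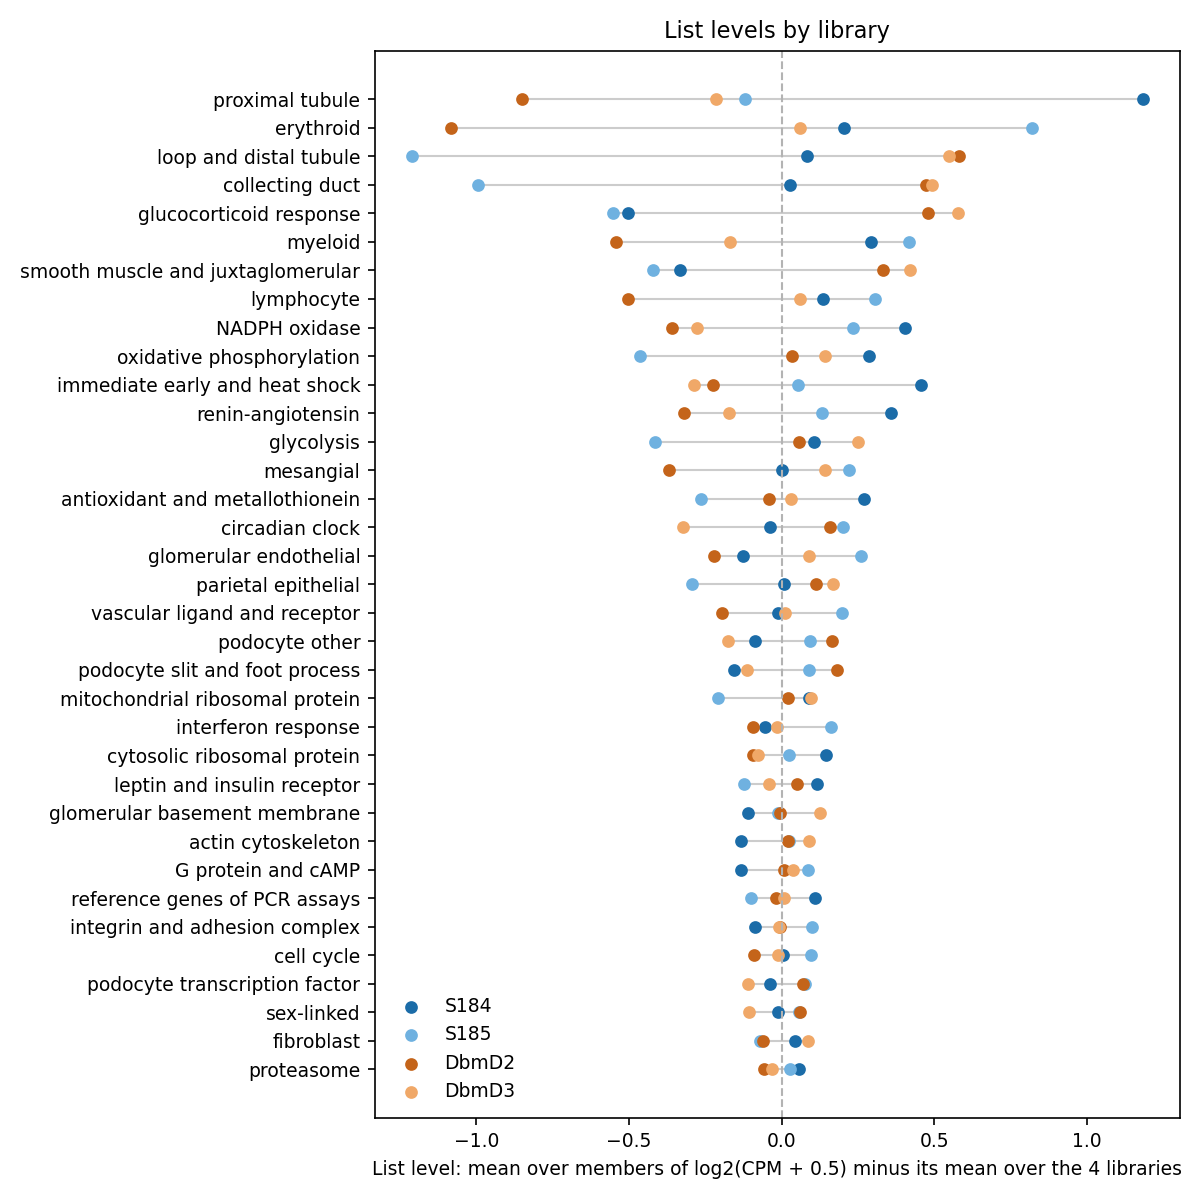
List level of each gene list in the 4 libraries, as the average over members of log2(CPM + 0.5) centred on each gene's own mean, in log2 units. Tubule, erythroid and glucocorticoid lists spread over more than 1 unit, whereas the podocyte lists stay within 0.35 and the proteasome within 0.12.

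Genes known to answer to handling or to the time of day differed as well. Immediate early and heat shock genes (23 of 24 measured, median percentile 88.8) had list levels of 0.46, 0.05, -0.22 and -0.29, and 12 of them differed over 2-fold, against 11.7% of all symbols. Fos, the transcription factor gene induced within minutes of a stimulus, had 84.7, 30.6, 38.9 and 28.8 CPM per kb. Nr4a1, an orphan nuclear receptor of the same kind, had 111, 69.8, 30.3 and 34.2, and Hspa1a, an inducible heat shock protein that shares reads with Hspa1b, had 85.1, 53.6, 39.8 and 17.6. S184 was highest for 14 of the 23 genes, against 20.1% of all symbols. Ctgf, a matricellular target of mechanical signalling, did not follow them, with 539, 658, 308 and 551 CPM per kb.

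DbmD3 was the lowest library for 11 of the 14 circadian genes, against 24.2% of all symbols (list levels -0.04, 0.20, 0.16 and -0.32). Dbp, a clock-controlled transcription factor, had 119, 137, 108 and 60.1 CPM per kb, and Nr1d2, a repressor of the clock loop, had 49.8, 61.1, 51.5 and 28.6. Arntl, which encodes the activator BMAL1 and peaks in antiphase to Dbp, had its highest value in DbmD3, at 2.4, 2.27, 2.99 and 5.88 CPM per kb. No label gives the hour at which the mice were killed.

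The clock activators bind the E-box CACGTG, which reads the same on both strands. It occurred in 4 of the 13 clock genes with a matched RefSeq promoter (30.8%), taken from 250 bases before to 50 bases after the start, and in 10.2% of all matched promoters. This share was not particular to clock genes. It was 29.4% (5 of 17) for G protein and cAMP genes and 28.6% (2 of 7) for leptin and insulin receptor genes. Every other list had 20% or less. The matches in the clock genes are shown 5′ to 3′ with the E-box in capitals, from build GRCm38.p6.
Per1: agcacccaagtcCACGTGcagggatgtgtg
Tef: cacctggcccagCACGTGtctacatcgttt
Cry1: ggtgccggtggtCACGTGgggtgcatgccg
Ciart: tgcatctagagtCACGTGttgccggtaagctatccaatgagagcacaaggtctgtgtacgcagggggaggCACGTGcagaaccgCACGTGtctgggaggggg
They lie at chr11:69098771-69098800 (plus strand), chr15:81811264-81811293 (plus), chr10:85185097-85185126 (minus) and chr3:95882255-95882356 (minus). The first base of the E-box was 166 bases before the start in Per1, 138 in Tef, 60 in Cry1, and 116, 58 and 44 in Ciart. Per1, a repressor of the loop, had 44.1, 43.7, 51.1 and 39.1 CPM per kb, and Tef, a relative of Dbp, had 80.6, 101, 95.3 and 59.8. Cry1, another repressor, had 3.91, 6.23, 4.26 and 3.32 CPM per kb, and Ciart, a clock repressor, had 4.81, 4.95, 3.8 and 2.41. DbmD3 was lowest in each of these 4.

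Genes used to scale PCR assays were no more than 2-fold apart in any case, where 11.7% of all symbols were over 2-fold apart. Of the 16, Ywhaz, a 14-3-3 adaptor, was steady at 118, 123, 117 and 114 CPM per kb, and Ppia, cyclophilin A, at 1228, 1115, 1136 and 1050.4. Actb had 643, 695, 673 and 796 CPM per kb. Gapdh had the larger range given above, of 1.84-fold, and was lowest in S185 with the other glycolysis genes. The evenest symbols above 10 CPM were Klhl12, an adaptor of a ubiquitin ligase (27.6, 27.5, 27.7 and 27.7 CPM), Trappc10, a vesicle tethering subunit (98.8, 99.4, 98.4 and 98.6), and Derl1, of protein export from the endoplasmic reticulum (121, 120.0, 119.6 and 121). Their spread is below the counting error, as the choice of the smallest values among 10530 brings with it.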

How the data were processed

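The authors deposited a table of read counts for 22320 RefSeq transcripts. Per the submitters' processing notes, BWA, limma and build mm10 were used, and no versions are named. How reads were assigned and whether strand was used was not stated. The deposited log2 values in single files differ from log2 of the table's counts only by a fixed offset in each library, as tested on the files, and were not analysed further. Another 8 columns of the table match no sample label and were not used, and no row has its highest count under 69, so genes not listed may be expressed. In 50 rows a symbol had become a date and was restored, and 5 blank cells were taken as no reads.

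The highest transcript of each of 13734 symbols was scaled to CPM and divided by length in kb. Of 4562 symbols with several transcripts, 74.1% had a second one within 10% of the first, and 17 symbols share all 4 counts with another. Spread is the SD of log2(CPM + 0.5), and symbols were ranked by it above 10 CPM. The biological coefficient of variation came from edgeR 4.0.16 in R 4.3.3, with DESeq2 1.42.0 for other size factors, and the rest from Python 3.11.15, pandas 2.3.3, numpy 2.4.6 and matplotlib 3.10.9. The scripts were tested on simulated data. No treatment groups were compared, and the S-number and group-tag libraries were set side by side without a test, so no p-value is given. Totals per library limit counting error, which covers sampling of reads only.

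Named genes are members of the gene lists, the 25 symbols highest by CPM per kb, the 10 highest by CPM, the 20 with the largest and 10 with the smallest spread, Gnai1 and Lepr. The members and lists were chosen with earlier results of these data known, and the annotation classes after the table was seen. Some genes of these lists are counted in them but not reported by name here.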

Additional observations from a re-analysis of the deposited data

Results flagged for a closer look

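In each group of 4 values the distance of the highest or lowest library to its nearest neighbour was set against the whole range. That ratio passed Dixon's 95% critical value for 7 of 178 values, and for 4.77% of all symbols. Chance passes about 1 in 20, so the 7 are no more than chance alone would give. No list level passed it.

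DbmD2 stood apart for 3 genes. Nephrin (Nphs1) was high there, at 11.27 on the log2 CPM scale. The collagen chain gene Col4a4 was also high there, at 9.15, and the angiotensin receptor gene Agtr1a was low, at 6.86. S185 stood apart for a pair of genes in which it was low, the calcium-binding S100g at 7.04 and the lactate dehydrogenase subunit Ldhb at 7.93. S184 was low for Tcf21 at 7.96, and DbmD3 was low for Clic3 at 8.56. The causes were not tested.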

How the results depend on the processing

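No paired analysis was possible because the 4 libraries form a single group, and beyond Dixon's ratio no test was run. Summing all transcripts of a symbol gave median percentiles of 91.6 for the slit diaphragm list (93.7 by the highest transcript), 98.4 for ribosomal proteins (98.96) and 96.3 for oxidative phosphorylation (97.0), and the 10 highest symbols then held 5.21% of the counts (4.62%). Without division by length the medians were 98.6 for the slit diaphragm list, 98.5 for other podocyte genes (96.4), 96.5 for ribosomal proteins and 89.7 for oxidative phosphorylation. The median SD over all symbols was 0.20 with 4 libraries, 0.158 within S184 and S185, 0.130 within DbmD2 and DbmD3, and 0.174 (without S185) to 0.202 (without DbmD2) with a library left out. A median SD runs lower from fewer values at the same spread. The lower medians within pairs therefore do not show that the pairs are tighter than all 4 libraries. The count of symbols over 2-fold apart was 905 above 10 CPM and 1606 without that limit. The biological coefficient of variation was 21.9% over the 4 libraries, 21.4% within S184 and S185 and 13.8% within DbmD2 and DbmD3. Apart from the number of values behind an SD, the cause of these shifts was not tested.

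Of 143 gene levels, none moved by more than its SD with other scalings, while 98 did when transcripts were summed. Among 4 values, taking the median or leaving out 1 library cannot move a level past its SD, so that measure says nothing there. In fold terms, the median changed levels by up to 1.61-fold, with 2 of 143 over 1.5-fold. Leaving out 1 library changed them by up to 1.88-fold, with 9 of 572 values over 1.5-fold. Of the 143, 118 changed by over 1.5-fold with summing, and 45 were higher. Summing enlarges every library's total, so genes with 1 transcript were lower, Podxl at 1216 CPM per kb. Genes with several were higher, up to 5.41-fold: Aqp4 stood at 2.17, Gnas at 1783, Prkar1a at 484, Pecam1 at 443 and Ywhaz at 281 CPM per kb. Leaving out S184 lowered the mean of Cyp2a5 to 8.12 from 15.3 CPM per kb and of Azgp1 to 7.45 from 13.4. Cnn1 averaged 2.65 without DbmD2 (3.99 with it) and Zbtb16 9.25 without DbmD3 (14.1 with it). Low genes are limited by the floor of the table, and 4 libraries by their number.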
